A study of Mus musculus with 2 samples.

Results

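In single-cell libraries of mouse medulloblastoma driven by Sonic hedgehog (SHH) signalling, 96 cells carried a transcript of the transcription factor Sox2 and none of 9 genes of the oligodendrocyte and astrocyte lineages. They were selected on these values from 10519 cells that passed the filters, out of 10991 deposited. A kept cell had at least 500 unique molecular identifiers (UMIs, each standing for one captured transcript) and at most 20% of them from mitochondrial genes. A member had at least 1 UMI of Sox2 and no UMI of Olig2, Sox10, Pdgfra, Gpr17, Cspg4, Aldoc, Aqp4, Gpr37l1 or Sparcl1. Each member was set beside the 5 Sox2-negative cells of the same library that also lacked those 9 genes and were nearest to it in UMI number. Sox2 and the 9 genes are therefore not results and were left out of every comparison.

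The study profiled whole-tumour cells of hGFAPcre;Ptchc/c mice by Drop-seq, which captures single cells with barcoded beads in droplets and counts the 3′ ends of their transcripts. In these mice a Cre recombinase under the human GFAP promoter, which is active in neural progenitors of the developing brain, deletes Ptch, the receptor that holds SHH signalling off. Tumours of both ages carry this deletion, and no library without it was used here. There was 1 library from postnatal day 12 (P12) and 1 from mice of postnatal days 24 to 30 (P24-30). The labels do not give the number of animals behind each library. With 1 library per age there is no replicate and no test, and age cannot be told apart from the preparation of the library, so the libraries are given side by side. All intervals below are exact 95% intervals that cover counting error only, not the spread between cells, animals or tumours.

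Sox2 is a SoxB1 transcription factor that keeps neural stem cells and glial progenitors undifferentiated. SHH medulloblastoma arises from cerebellar granule neuron progenitors, which divide under SHH and then leave the cell cycle to become granule neurons marked by genes such as Neurod1 and Stmn2. Rare Sox2-positive cells in such tumours are known as slowly dividing, stem-like cells that can give rise to the bulk of dividing progenitors, while Sox2 is also made by oligodendrocyte progenitors, astrocytes and ependymal cells.

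The P12 library held 64 members among 5723 kept cells, a share of 1.12% (0.862% to 1.43%). In the P24-30 library 32 of 4796 kept cells were members, a share of 0.667% (0.457% to 0.941%). Sox2 lies on chromosome 3 at 34650405 to 34652461 of mm10, on the plus strand, as a single exon in GENCODE vM21, and no exon of the overlapping Sox2ot covers it. Its detection rested on single molecules. At P12, 62 members had 1 Sox2 UMI and 2 had 2, and at P24-30, 31 had 1 and 1 had 2. Without the 9 excluded genes as a condition, 152 kept cells at P12 and 81 at P24-30 had a Sox2 UMI. Of these, 57.9% and 60.5% carried at least 1 excluded gene, against 34.1% and 27.9% of Sox2-negative cells. The excluded genes differed widely in frequency. Among Sox2-negative cells Pdgfra was found in 23.25% at P12 and 16.1% at P24-30, and Sox10 in 0.503% and 0.467%. Among Sox2-positive cells Pdgfra was found in 30.9% in each library. How many cells with an excluded gene are glia was not tested. The members are the smaller part of all Sox2-positive cells in both libraries.

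A Sox2 UMI also occurred in cells that should lack the gene. Among cells with markers of microglia, the immune cells of the brain, 1 of 103 had a Sox2 UMI at P12, which is 0.971% (0.0246% to 5.29%) at a median of 2052 UMIs. The share among all kept P12 cells was 2.66%, at a median of 1805 UMIs. At P24-30 the microglia-marker cells gave 2 of 72, or 2.78% (0.338% to 9.68%) at a median of 2284 UMIs, and all kept cells gave 1.69% at 2193.5 UMIs. In both libraries the share among all kept cells lay inside the interval of the microglia-marker cells. The counts therefore do not separate it from this background, and it is not read as a rate of expression. With every cell thinned to 500 UMIs, Sox2 was found in 0.664% of P12 cells and 0.397% of P24-30 cells, and in none of the 103 and 72 microglia-marker cells. The share was not alike in all cell types, since 13 of 41 cells with Sox10 at P12 (31.7%) and 11 of 33 at P24-30 (33.3%) had a Sox2 UMI.

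The members had a median of 2112.5 UMIs at P12 (823 to 5575) and 2784.5 at P24-30 (718 to 6094). The 320 and 160 matched Sox2-negative cells had the same medians. Median genes per cell were 1300.5 in members and 1287 in controls at P12, and 1371.5 and 1415.5 at P24-30. The mitochondrial share was also close, at a median of 7.53% against 7.51% and 2.75% against 2.84%.

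Some cells stood apart before any comparison. At P24-30, 5 of the 32 members (15.6%) held 20 or more UMIs of a gene found in under 5% of that library's cells, against 10 of 160 controls (6.25%) and none of the 64 P12 members. One of these, with 3083 UMIs, met this limit by 77 UMIs of Enpp2 and 23 of Ecrg4. It also held 974 UMIs of Ttr, the transthyretin of choroid plexus epithelium. The others held 292 UMIs of Adamtsl1, 124 of Hoxc5, 90 of Ms4a6b or 35 of the receptor Notch1. In the P12 controls, 13 cells had microglia markers, against no member of either library. No doublet caller was run, so droplets with 2 cells can remain. The P24-30 columns carry 16 tags whose meaning is not given and no cell barcodes, so barcodes shared between the libraries could not be counted. Values that rest on these cells are given with and without them.

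Most members had transcripts of the granule lineage of the tumour. Zic1, a transcription factor of granule progenitors, was detected in 62.5% of P12 members and 65.0% of their controls, and in 75% and 83.8% at P24-30. Atoh1, the factor that defines granule progenitors, was detected in 23.4% of members against 21.2% of controls at P12 and in 12.5% against 16.9% at P24-30. The summed level of the 14 granule progenitor genes was 0.870 times that of the controls at P12 (0.751 to 1.00) and 0.825 times at P24-30 (0.680 to 0.994). Cells with at least 2 genes of another type occurred in both groups. At P12, unipolar brush cell genes were found in 4 of 64 members and 8 of 320 controls, oligodendrocyte genes beyond the rule in 4 and 37, choroid plexus genes in 1 and 5, and genes of GABAergic neurons in 1 and 19. At P24-30, unipolar brush cell genes were found in 4 of 32 members and 6 of 160 controls, choroid plexus genes in 4 and 15, oligodendrocyte genes in 2 and 15, fibroblast genes in 1 and 2, and ependymal genes in 1 and 1. Relative to group size, unipolar brush cell genes were more frequent in members of both libraries. Cells with markers of other types were left out only all together, so the part of the unipolar brush cell genes alone was not tested.

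The comparison took in all genes above a minimum level. The median ratio of members to controls, in CPM, the UMIs of a gene scaled to 1000000 UMIs of the group, was 1.03 over the 4004 genes compared at P12 and 1.03 over the 3289 compared at P24-30, and the scaling to a common total itself keeps this median near 1. A gene was compared where the mean of both groups reached 50 CPM. A gene is called here where it was at least 1.5-fold higher or lower. At P12, 12.2% of genes were higher and 10.2% lower by that rule, and at P24-30, 16.0% and 14.4%. Of the 2761 genes compared in both libraries, 58 were higher in both (2.10%) and 58 lower in both (2.10%). These shares are the background for every count below, and since 1 member cell can carry a gene past the limit, a single gene's call is a description of these libraries.

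The clearest difference was in genes of neuronal differentiation, which were lower in the members of both libraries. Their summed level at P12 was 3648 CPM in members and 7317 CPM in controls, a ratio of 0.498 (0.455 to 0.545). At P24-30 it was 3668 CPM against 6081 CPM, a ratio of 0.603 (0.536 to 0.677). Of the 20 genes of the list compared, 13 were called lower at P12 and 11 at P24-30, and none was called higher in either, against the background of 10.2% and 14.4% lower. The median ratio of the list's genes was 0.588 and 0.628, while that of all genes was 1.03 in each library. Other choices of cell filter, controls, weighting and depth gave between 0.459 and 0.588 at P12 and between 0.513 and 0.645 at P24-30.

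Transcription factors and cytoskeletal genes of young granule neurons led this list. Neurod1, the factor that drives granule neuron differentiation (chromosome 2, 79452521 to 79456751, mm10), had 27 UMIs in members and 798 in controls at P12, a ratio of 0.169 (0.111 to 0.248). Its ratio at P24-30 was 0.394 (0.249 to 0.598), from 24 UMIs against 304. Neurod1 was detected in 29.7% of members and 57.2% of controls at P12, so it was still present in a part of the members. Neurod1 overlaps Cerkl on the same strand and Gm26755 on the other, so some of its counts may belong to those genes. Stmn2, a microtubule regulator of growing axons (chromosome 3, 8509360 to 8561606), gave 0.175 (0.110 to 0.265) at P12 and 0.380 (0.255 to 0.548) at P24-30. Its relative Stmn4 was found in 5 member cells at P12 and 2 at P24-30. The ratios for Stmn4 were 0.262 (0.124 to 0.492) and 0.131 (0.0156 to 0.491).

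The 12 genes lowest in both libraries, whose direction is fixed by that choice, held further genes of synapses and axons. The share of such genes among all genes compared was not counted. Gria2, a subunit of AMPA-type glutamate receptors, was at 0.498 and 0.528 times the control level. Cacng2, which brings those receptors to the membrane, was at 0.563 and 0.562. Map1b, a microtubule-associated protein of axons, was at 0.511 and 0.545, and the growth cone protein Basp1 was at 0.677 and 0.663. Some other listed genes of axons and synapses, named after their values were seen, were not called lower in both libraries. The vesicle fusion protein Snap25 was at 1.17 (0.658 to 1.97) at P12 and 0.434 (0.114 to 1.19) at P24-30. The axonal protein Mapt was at 0.490 (0.153 to 1.22) and 1.2 (0.402 to 2.99). The growth cone protein Gap43 was below its controls in both, at 0.585 (0.425 to 0.791) and 0.878 (0.617 to 1.22), but called lower only at P12.

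The remaining genes of the 12 lowest in both libraries were Tubb3, Nnat, St8sia3, Pde1c and Igsf8. Tubb3, the neuronal beta-tubulin, was at 0.380 (0.198 to 0.667) at P12 and 0.612 (0.410 to 0.886) at P24-30, and its 3′ end resembles that of Tubb6, so its reads may be shared. Nnat, an endoplasmic reticulum protein of differentiating neurons, was at 0.522 and 0.474. The sialyltransferase St8sia3 was at 0.242 and 0.232, the phosphodiesterase Pde1c at 0.578 and 0.380, and the membrane protein Igsf8 at 0.341 and 0.405. The labels do not state whether the counting used strand, so the Igsf8 counts are uncertain. Among list genes chosen after their values were seen, Cntn2, an adhesion molecule of migrating granule cells, had no UMI in the 64 P12 members and 57 in their controls. It had 3 UMIs against 65 at P24-30. Sox4, a factor of early neuronal commitment, was not lower, at 1.03 (0.714 to 1.46) and 1.27 (0.815 to 1.92).

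**Figure D1:**
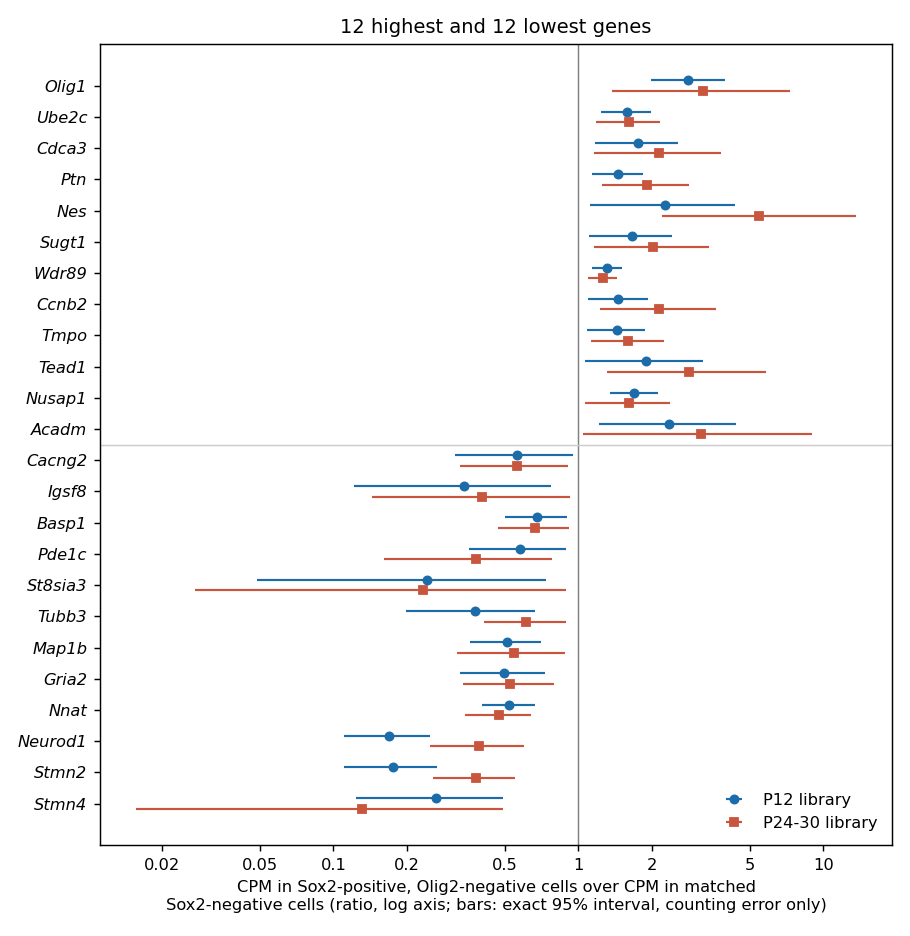
Ratio of members to matched Sox2-negative cells (log axis) for the 12 highest and 12 lowest genes in both libraries, with points for P12 and P24-30 and bars for exact 95% counting intervals. Stmn4, Stmn2, Neurod1 and St8sia3 lie farthest below 1, and Nes and Olig1 among the farthest above it.

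Seen cell by cell, neuronal transcripts were present in many members, and the cells with the highest neuronal share were controls. The neuronal list took a median of 0.353% of a member's UMIs at P12 against 0.537% in controls, and 0.330% against 0.536% at P24-30. No P12 member passed 1%, whereas 69 of 320 controls (21.6%) did. The highest P12 member stood at 0.778% and the highest control at 3.96%. At P24-30, 4 of 32 members (12.5%) passed 1%, against 32 of 160 controls (20%). A UMI of Neurod1, Stmn2, Cntn2 or Tubb3 was found in 33 of 64 members (51.6%) and 248 of 320 controls (77.5%) at P12. The same was true of 25 of 32 members (78.1%) and 146 of 160 controls (91.2%) at P24-30. When members and controls with any of these 4 genes were left out, the list's ratio was 0.984 at P12 and 1.06 at P24-30. Since those genes belong to the list, that value describes the remaining cells.

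Genes of the G2 and M phases of the cell cycle were higher in the P12 members. Their summed level was 15810 CPM in members and 11920 CPM in controls, a ratio of 1.33 (1.26 to 1.39). Of 34 list genes compared, 10 were called higher and none lower, against a background of 12.2% higher. All the alternatives kept the P12 ratio above 1, between 1.24 and 1.5. With each cell thinned to 500 UMIs, 44 of 64 members (68.8%, 55.9% to 79.8%) had at least 3 UMIs of the list, against 154 of 320 controls (48.1%, 42.5% to 53.8%). The size of this gap depended on the threshold and on thinning. With 2 UMIs of the list required, the thinned shares were 70.3% (57.6% to 81.1%) and 56.6% (50.9% to 62.1%). Without thinning, 48 of 64 members (62.6% to 85.0% of cells) and 213 of 320 controls (61.1% to 71.7%) had at least 3.

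At P24-30 the same list gave a ratio that changed side under other choices of cells. Its level was 8296 CPM in members and 7242 CPM in controls, a ratio of 1.15 (1.06 to 1.24), with 6 of 33 genes higher and 4 lower. A single cell of 6094 UMIs supplied 125 of the members' 744 UMIs, and without it the ratio was 1.02. With controls taken only from the same column tag as each member the ratio was 0.992 (0.915 to 1.07). The tags differed widely in this list. The 5 members tagged G16 stood at 20300 CPM and the 3 tagged G1 at 18770 CPM, while the 4 tagged G15 stood at 926 CPM. All kept cells of those tags had 19770, 15020 and 580 CPM. The 4 members tagged G7 stood at 1988 CPM against 625 CPM in all kept cells of that tag, and the 2 tagged G6 at 580 CPM against 2129 CPM, so members stood above their tag in some tags and below it in others. After thinning, 11 of 32 members (34.4%, 18.6% to 53.2%) and 58 of 160 controls (36.2%, 28.8% to 44.2%) had at least 3 UMIs of the list.

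The 12 highest genes, chosen for a ratio above 1 in both libraries, included the mitotic genes Ube2c, Cdca3, Ccnb2 and Nusap1. The share of mitotic genes among all genes compared was not counted. Ube2c, the ubiquitin-conjugating enzyme of the anaphase-promoting complex, had 95 UMIs in members and 302 in controls at P12, a ratio of 1.57 (1.24 to 1.99), and was at 1.60 (1.18 to 2.15) at P24-30. Ube2c overlaps Tnnc2 on the other strand. Cdca3, a trigger of mitotic entry, was at 1.74 (1.17 to 2.54) and 2.14 (1.16 to 3.80). The cyclin Ccnb2 was at 1.46 (1.09 to 1.92) and 2.14 (1.22 to 3.64), and the spindle protein Nusap1, which overlaps Oip5 on the other strand, at 1.69 (1.34 to 2.11) and 1.60 (1.06 to 2.37). With controls of the same tag, the P24-30 ratio was 1.32 (0.976 to 1.76) for Ube2c, 1.77 (0.973 to 3.08) for Cdca3, 1.65 (0.954 to 2.73) for Ccnb2 and 1.13 (0.761 to 1.64) for Nusap1, with 1 inside each interval. Ube2c at P24-30 was detected in 31.2% of members and 30.0% of controls, and thinning turned its ratio to 0.962. Mki67, the standard marker of dividing cells and chosen here after its values were seen, was detected in 75% of members and 61.3% of controls at P12 and in 50% and 44.4% at P24-30.

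**Figure D2:**
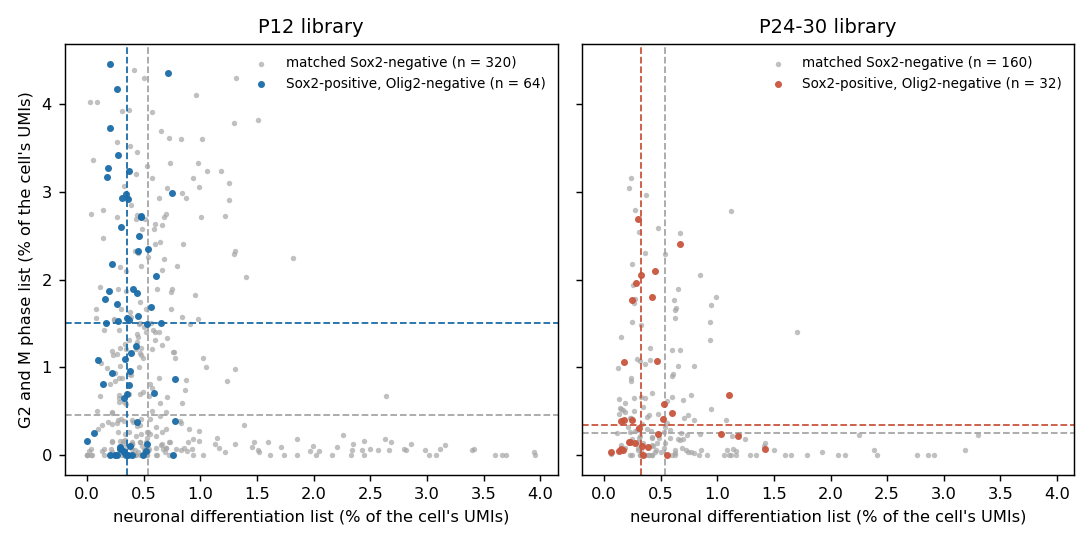
Each point is 1 cell, with the share of its UMIs in neuronal differentiation genes (percent) on the horizontal axis and in G2 and M phase genes (percent) on the vertical axis, for members and matched controls of each library, where dashed lines mark the medians. At P12 the members stop at 0.778% on the neuronal axis, where controls reach 3.96%.

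Taking both lists in the same cell, 37 of 64 members (57.8%) at P12 were below the control median for neuronal genes and above it for G2 and M genes, against 86 of 320 controls (26.9%). At P24-30 the figures were 14 of 32 members (43.8%) and 49 of 160 controls (30.6%). Genes of the G1/S transition and S phase gave 0.954 at P12, with 2 of 22 called higher and 4 lower, and 1.15 (1.02 to 1.3) at P24-30, with 7 of 25 higher and 1 lower. The cell-cycle inhibitors gave 1.08 and 0.957. Among them, Cdkn2c, an inhibitor of the G1 kinases chosen after its values were seen, had 16 UMIs in members and 36 in controls at P12, a ratio of 2.22 (1.15 to 4.11). Its P24-30 ratio was 1.3 (0.434 to 3.29).

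The gene that ranked highest over both libraries was Olig1, a bHLH factor of oligodendrocyte progenitors that was not among the 9 excluded genes (chromosome 16, 91269772 to 91271933, mm10). At P12 it stood at 375 CPM in members and 133 CPM in controls, a ratio of 2.81 (1.98 to 3.96), with a UMI in 23 of 64 members (35.9%) and 58 of 320 controls (18.1%). At P24-30 it stood at 123 CPM against 38.0 CPM, a ratio of 3.23 (1.37 to 7.31), with a UMI in 7 of 32 members (21.9%) and 13 of 160 controls (8.12%). With controls of the same tag the P24-30 ratio was 1.84 (0.831 to 3.77), so there the control level moved with the tag. Olig1 overlaps Gm15966 on the other strand. The members thus lacked Olig2 by choice and still had more Olig1 than other cells lacking Olig2.

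Among stem and progenitor genes, Nes was past the 1.5-fold limit in both libraries. Nes encodes nestin, an intermediate filament of neural stem cells, and lies on chromosome 3 at 87971078 to 87980451. It had 14 UMIs in 11 members and 31 in 25 controls at P12, a ratio of 2.26 (1.11 to 4.37). At P24-30 it had 12 UMIs in 6 members and 11 in 10 controls, a ratio of 5.45 (2.20 to 13.6). These are few molecules, and after thinning no P24-30 member kept one. Vim, the intermediate filament vimentin of radial glia and chosen after its values were seen, was at 2.95 (2.12 to 4.08) at P12, with a UMI in 51.6% of members and 22.8% of controls. At P24-30 Vim was at 1.03 (0.351 to 2.53), from 6 UMIs against 29.

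The list of SoxB1, Sox9 and stem-cell factors as a whole was at 1.13 (1.01 to 1.26) and 1.06 (0.881 to 1.26). Of its genes compared, 2 of 7 were called higher at P12 and 2 of 6 at P24-30, and none lower. Sox9, a factor of glial fate and stem cells, was at 1.17 (0.672 to 1.95) and 1.94 (0.968 to 3.69). The SoxB1 relative Sox3 and the long noncoding RNA Sox2ot had no UMI in members or controls of either library. The genes past the limit were Nes and Vim at P12 and Nes and Sox9 at P24-30. The P24-30 ratio of Sox9 fell to 0 under 1 alternative chosen after seeing the data.

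**Figure D3:**
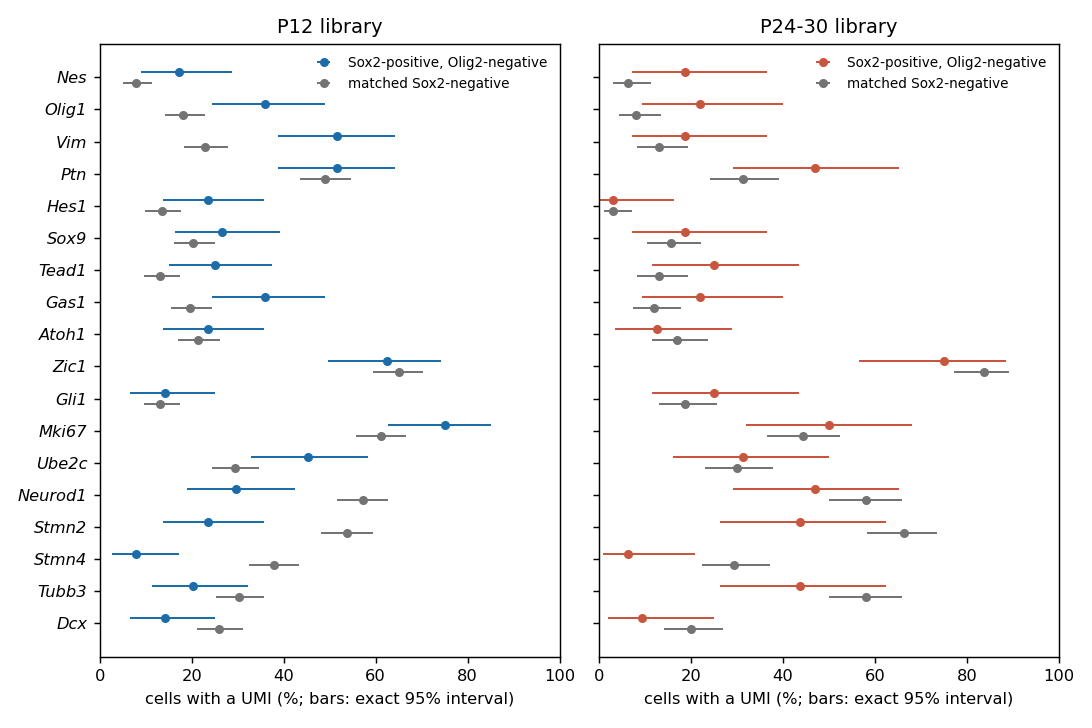
Percentage of cells with at least 1 UMI of selected genes in members and matched Sox2-negative cells of each library, with exact 95% intervals. Olig1, Nes and Vim stand higher in P12 members (35.9%, 17.2% and 51.6% against 18.1%, 7.81% and 22.8%), and Neurod1, Stmn2 and Stmn4 stand lower in both libraries.

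Other genes among the 12 highest belong to growth factor signalling, Hippo signalling and general cell functions. Ptn, a secreted growth factor made by radial glia and progenitors, was at 1.45 (1.14 to 1.83) at P12, from 93 UMIs against 321, and 1.90 (1.25 to 2.83) at P24-30, from 35 against 92. It was detected in nearly the same share of members and controls at P12, 51.6% and 49.1%, and in 46.9% and 31.2% at P24-30. With controls of the same tag the P24-30 ratio was 1.3 (0.870 to 1.90). Tead1, the DNA-binding partner of the Hippo effector YAP, had 20 UMIs against 53 at P12, a ratio of 1.89 (1.07 to 3.21), and 13 against 23 at P24-30, a ratio of 2.82 (1.31 to 5.81). It kept 2.17 (1.04 to 4.29) with controls of the same tag. Yap1 itself had no UMI in the P12 members and 1 at P24-30.

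The rest were less tied to a lineage. Acadm, an enzyme of fatty acid oxidation, was at 2.35 and 3.18, the co-chaperone Sugt1 at 1.65 and 2.02, and the nuclear envelope protein Tmpo at 1.43 and 1.60. Wdr89 was at 1.31 and 1.26, but its 3′ end is shared with Rplp2 and Gm15198, so its counts are uncertain.

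The Notch pathway, which keeps neural progenitors undifferentiated, was higher in members of both libraries as a sum but not for the same gene. At P12 it was at 660 CPM against 381 CPM, a ratio of 1.73 (1.36 to 2.20), with 1 of 3 genes compared called higher. Its largest part was Hes1, the main Notch target in progenitors, with 25 UMIs in 15 members against 60 in controls, a ratio of 2.08 (1.25 to 3.37). After thinning, Hes1 was at 0.882. The Notch ligands Dll3 and Dll1, chosen after their values were seen as was Hes1, had 5 and 3 UMIs in P12 members against 3 and 1 in controls. At P24-30 the sum stood at 2.50 (1.81 to 3.41), but 35 of the 63 UMIs were Notch1 in 1 member of 718 UMIs. Without that cell the ratio was 1.12. Hes1 there had 1 UMI in members and 6 in controls, and Hes5, Hey2 and Heyl had none in members or controls of either library.

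Genes of the SHH pathway, its receptors, transducers and targets, had a summed level near that of the controls, with single genes above it. Their summed level was at 1.13 (1.05 to 1.22) at P12, with 3 of 10 genes called higher, and at 1.06 (0.937 to 1.2) at P24-30, with 4 of 9 higher, and none was called lower. Chosen after their values were seen, Gas1, an SHH co-receptor, was at 1.94 (1.24 to 2.97) and 1.90, and the cyclin Ccnd1 at 1.39 (1.14 to 1.69) and 1.2. Gas1 was detected in 35.9% of members and 19.7% of controls at P12. Also named after their values were seen, Hhip, an SHH-binding inhibitor, was at 2.35 (1.21 to 4.38) at P12, and at P24-30 the transducer Smo was at 3.18 (1.05 to 8.98) from 7 UMIs against 11 and the effector Gli2 at 3.5 (1.13 to 10.2) from 7 against 10. Gli1, the transcriptional effector of the pathway, was at 0.90 and 1.54, and Sfrp1, a secreted Wnt antagonist made by these tumours, at 1.08 and 1.09. Ptch1, which the tumours lack by design, had 29 UMIs in members and 122 in controls at P12 and 0 and 3 at P24-30. The labels do not give the deleted exons, so these 3′ tags do not check the deletion.

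**Figure D4:**
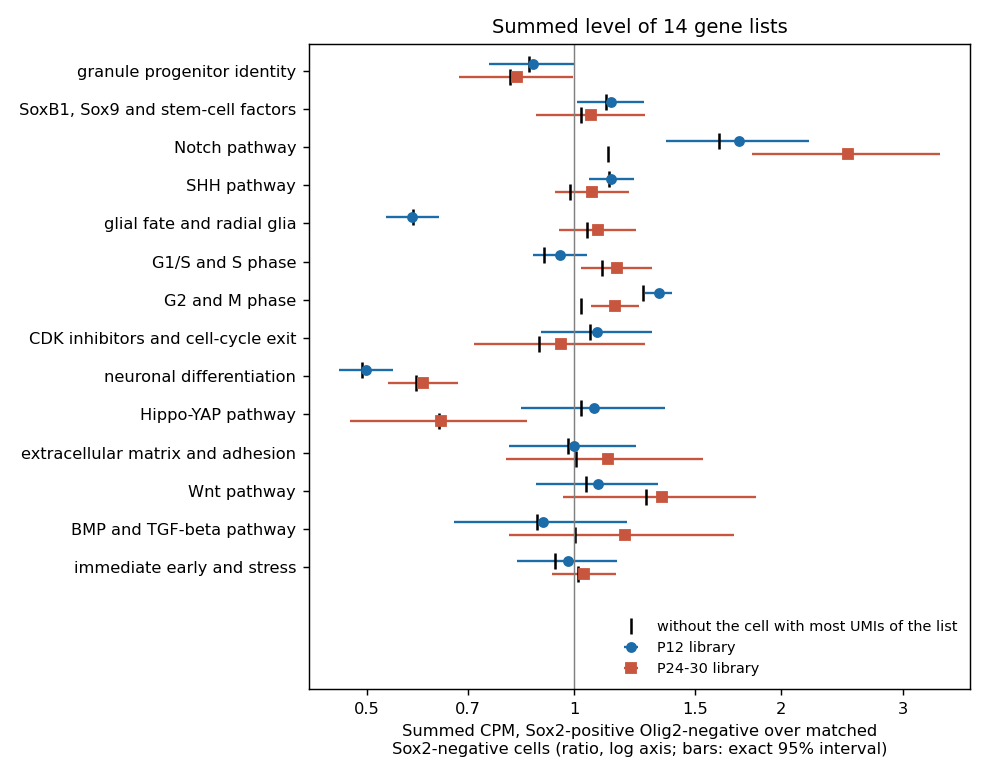
Ratio of summed CPM in members to that in matched Sox2-negative cells for each gene list, with exact 95% counting intervals, on a log axis, where black ticks give the ratio without the member cell that holds most UMIs of the list. Neuronal differentiation stands at 0.498 and 0.603, and G2 and M phase at 1.33 and 1.15.

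The list of glial fate genes, which includes Olig1 and Ptn, was not higher as a sum at P12, and its interval at P24-30 includes 1. At P12 it was at 0.582 (0.532 to 0.635), with 3 of 9 genes called higher and 4 lower, and the gene with most UMIs in the controls was Apoe, the lipid carrier of astrocytes and microglia. Apoe had 1550 UMIs in controls, among which 13 cells had microglia markers, and 8 in members. Without cells with markers of other types the ratio was 0.969. At P24-30 it was 1.08 (0.951 to 1.23), with 2 of 7 genes higher and none lower. Besides Olig1, the genes called higher at P12 were the glutamate transporter Slc1a2, at 1.64 (1.1 to 2.39), and the proteoglycan Vcan, at 2.03 (0.978 to 3.98), both named after their values were seen. Slc1a2 was at 0.892 (0.406 to 1.76) at P24-30. Nfib and Nfix, nuclear factors of differentiating granule cells and glia, were at 0.743 (0.643 to 0.855) and 0.552 at P12 and at 0.924 and 0.877 at P24-30. Fabp7, the lipid-binding protein of radial glia, had no UMI in the P12 members and 2 at P24-30.

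The Hippo list was at 1.07 at P12 and 0.641 (0.472 to 0.855) at P24-30, where 4 controls held 241 UMIs of the kinase Lats1 and members none. The median ratio of its genes there was 1.38. Wnt genes were at 1.08 and 1.34 (0.964 to 1.84), genes of BMP and TGF-beta signalling at 0.90 and 1.19, extracellular matrix genes at 0.998 and 1.12, and early stress genes, which respond to the handling of cells, at 0.978 and 1.03. The median over all genes was 1.03 in both libraries.

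Among lists for other cell types, 1 was lower in members of both libraries with intervals that exclude 1. The erythroid list was also below 1 in both, at 0.50 and 0.951, with intervals that include 1. The GABAergic list had 35 UMIs in 27 members and 355 in 182 controls at P12, a ratio of 0.493 (0.338 to 0.699), and 30 UMIs against 223 at P24-30, a ratio of 0.672 (0.443 to 0.986). Its Purkinje lineage factor Lhx1 supplied 30 of the 35 member UMIs and 323 of the 355 control UMIs at P12. At P24-30 it supplied 26 of the 30 and 194 of the 223. Lhx1 was the only list gene compared in either library, at 0.464 and 0.669. The list's ratio is therefore mainly that of Lhx1. The unipolar brush cell list was at 1.09 (0.703 to 1.64) at P12 and 1.97 at P24-30. The transcription factor Otx2, which is also in the choroid plexus list, supplied 20 of its 30 member UMIs at P24-30. The Otx2 ratio there was 2.32. The choroid plexus list at P24-30 was at 3.81, of which 1 member held 1094 of 1123 UMIs, and without that cell it was at 0.102. The microglia list at P12 had 3 UMIs in members and 1193 in controls.

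Members also differed from the Sox2-positive cells that carried an excluded gene, 88 at P12 and 49 at P24-30. These groups were not matched on UMIs, and deep cells weigh more in the sums. At P24-30 the deepest of the 49 cells held 50361 of their 276173 UMIs, and choroid plexus genes stood at 66410 CPM in that group. How far this moved the P24-30 ratios below was not tested. Oligodendrocyte genes beyond the rule were in members at 0.0764 and 0.128 times the level of those cells, and glial fate genes at 0.387 and 0.259. Olig1 was at 0.304 and 0.300, so the members sat between their Sox2-negative controls and the excluded Sox2-positive cells. Fabp7 had 0 UMIs against 181 at P12 and 2 against 109 at P24-30. Neuronal differentiation genes were at 0.819 (0.736 to 0.911) times the level of those cells at P12 and at 1.21 (1.06 to 1.38) at P24-30, so the members were not the lower group in both libraries. Stmn2 was at 2.02 (1.04 to 3.97) and 1.54 (0.967 to 2.41), and Neurod1 at 1.33 and 1.39 with intervals that include 1. Genes of the G2 and M phases were at 1.51 and 1.64 in members relative to those cells. Granule progenitor genes were at 1.27 and 1.42. The cells with an excluded gene were selected partly on glial genes, so the lower glial values in members follow in part from the rule.

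A further comparison was with Olig2-positive cells without Sox10 or Sox2, 249 at P12 and 168 at P24-30, also not matched on UMIs. Neuronal genes were at 0.923 (0.838 to 1.02) and 0.842 (0.748 to 0.945) times their level, a smaller distance than from the Sox2-negative controls. G2 and M genes were at 1.26 and 1.15. Olig1 was lower in members, at 0.413 and 0.515, and Nes was at 0.775 and 2.02. The stem-cell list was at 0.920 (0.822 to 1.03) and 0.830 (0.695 to 0.985). At P12 Hes1 was at 0.652 (0.409 to 0.999) and Sox9 at 0.519 (0.304 to 0.84). At P24-30 they were at 0.189 and 0.793, with intervals that include 1. The Notch list was at 0.925 and, with the Notch1-rich member kept, 2.10. The higher P12 levels of Hes1, the Notch list and the stem-cell list were thus not particular to the members. The ratio of the neuronal list was thus nearer to 1 against these cells than against the matched controls.

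**Figure D5:**
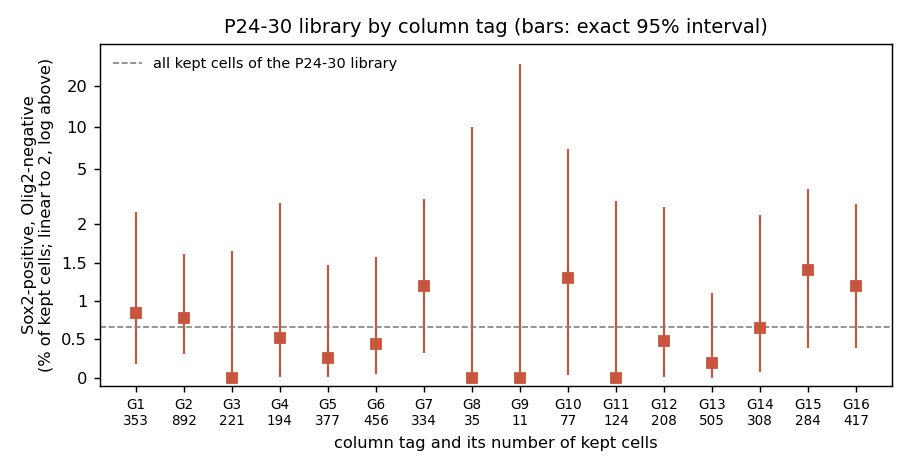
Share of kept P24-30 cells that are members, by column tag, with exact 95% intervals and the cells per tag. Members occur in 12 of 16 tags, from 0.198% in G13 to 1.41% in G15.

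Within the P24-30 library the members were spread over 12 of the 16 column tags. Tag G2 held 7 among 892 kept cells, G16 5 among 417, G7 and G15 4 each among 334 and 284, and G1 3 among 353. No member was found in G3, G8, G9 or G11, which hold 221, 35, 11 and 124 kept cells. By 3 counts of the total, a count of 0 there allows shares of up to 1.36%, 8.57%, 27.3% and 2.42%, and the exact 95% intervals drawn in the plot by tag reach 1.66%, 10%, 28.5% and 2.93%. Of the 11 cells in G9, 4 had a Sox2 UMI and all 4 carried an excluded gene. The neuronal list kept its direction with controls of the same tag, at 0.618 (0.549 to 0.693), and the G2 and M list did not.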

How the data were processed

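The authors deposited a table of counts for P12, whose values are whole numbers per gene and cell, and natural log values per gene and cell for P24-30. CASAVA and the mm10 build are per the submitters' processing notes. For the aligner, the UMI counter and the cell filter, tool names remain not given in the sources used here, nor whether P12 counts were collapsed by UMI. The P24-30 values were turned back into UMIs by dividing expm1 of each value by the cell's smallest value above 0, and 100% came out whole within 0.001. Depth was 12265399 UMIs at P12 and 12284458 at P24-30, and 16549 genes were shared.

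Cells and members were filtered as described, and 5 controls per member were drawn without replacement by nearest UMI number. Ratios compare summed CPM, with exact conditional intervals, and shares have Clopper-Pearson intervals, both 95% and for counting error only. Counts were thinned with a fixed seed. The 14 pathway lists and 9 lists of other cell types, the members and the rules were chosen with earlier results of these data known. Named genes were the 12 highest and 12 lowest with at least 50 CPM in each library, ranked by the less extreme interval bound, with a UMI in at least 5 members (or 5 controls), and the 2 highest and 2 lowest of each list. Alternatives changed the UMI and mitochondrial limits, the controls, the weighting, thinning, the level filter and cells with markers of other types. Scripts were tested on simulated data and used Python 3.11.15, numpy 2.4.6, scipy 1.17.1, pandas 2.3.3 and matplotlib 3.10.9. Gene positions are from GENCODE vM21.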

Additional observations from a re-analysis of the deposited data

How the results depend on the processing

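No paired analysis was possible because there is 1 library per age. Requiring at least 2 Sox2 UMIs leaves 2 members at P12 and 1 at P24-30, so gene ratios were not run for it. The alternatives that removed the leading cell, cells with neuronal genes or cells rich in a rare gene, the same-tag controls, and the share over cells lacking the 9 genes were chosen after seeing the data. With members this few, 1 cell can move a list, and depth limits any gene under about 50 CPM to a few molecules. Where a value moved, the cause was not tested beyond what the alternative itself removed.

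The share of members was 0.0350% at P12 and 0.0209% at P24-30 with 2 Sox2 UMIs, 0.419% and 0.251% after thinning, and 1.71% at P12 over cells lacking the 9 genes. The share of P24-30 members with G2 and M UMIs was 68.8% without thinning. For the G2 and M list at P12 the ratio was 1.26 without the leading cell, 1.24 with 2 controls, 1.5 unmatched, 1.44 with cells weighted equally, 1.5 thinned, 1.24 without other cell types, 1.26 at up to 10% mitochondrial UMIs and 1.5 without neuronal-gene cells. At P24-30 it was 1.02 without the leading cell, 1.03 with 2 controls, 1.5 unmatched, 1.34 without other cell types, and it reversed to 0.953 thinned, 0.807 without neuronal-gene cells and 0.992 with same-tag controls. The neuronal list at P12 was 0.588 as a median of genes and 0.984 without neuronal-gene cells, and at P24-30 it was 0.513 unmatched and 1.06 without neuronal-gene cells, a reversal in cells chosen by genes of the list. The Notch list at P12 was 1.2 as a median and 1.23 thinned. At P24-30 it was 1.07 as a median, 1.12 without the leading cell, 6.35 with cells weighted equally, 8.0 thinned, 1.1 at 1000 UMIs or more, 7.48 without neuronal-gene cells and 1.19 without cells rich in a rare gene.

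Lists that reversed at P24-30 were the Hippo list (1.38 as a median, 1.34 with 2 controls, 1.24 unmatched, 1.25 without other cell types, 1.58 at 1000 UMIs or more, 1.59 without cells rich in a rare gene, 1.28 with same-tag controls), choroid plexus (0.102 without the leading cell), GABAergic genes (1.43 thinned) and unipolar brush cell genes (0.357 thinned), and at P12 microglia genes (1.11 without other cell types). Reversed genes were Hes1 at P12 (0.882 thinned), Nes at P24-30 (0 thinned), Ube2c at P24-30 (0.962 thinned), and, without neuronal-gene cells, at P24-30 Ccnb2 (0.548), Gria2 (1.07), Sugt1 (0.925) and Wdr89 (0.922), and at P12 Nfib (1.04), Pde1c (1.29) and Stmn4 (1.32). The reported intervals of these lists and genes excluded 1. Other lists and genes, whose interval included or reached 1, also changed side. Among them, Sox9 fell as low as 0 at P24-30 and 0.737 at P12, and Ccnd1 as low as 0.519 at P24-30. Zic1 rose as high as 1.37 at P12 and 1.265 at P24-30.

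Counts of called genes moved most with thinning, the level filter and the removal of neuronal-gene cells. Higher at P12 were 1265 genes thinned, 1259 at 20 CPM, 164 at 100 CPM and 813 without neuronal-gene cells, and lower at P12 were 863, 1128 and 134 for the same settings up to 100 CPM. Higher at P24-30 were 1399, 1357, 195 and 1263, and lower 819, 1414, 156 and 867. Higher in both were 215, 207, 13 and 142, with 30 where the filter used all kept cells. Lower in both were 156, 240, 18 and 136, with 102 for that filter, 96 with cells weighted equally and 93 without other cell types. Under all alternatives, 102 values for the main comparisons and 941 for single genes and further lists stayed near the reported value. Near means within its counting interval or, for counts of genes, within 1.5 times of it. Another 57 and 106 values moved further without being counted as reversed, and the 106 are not listed one by one. Gas1 at P24-30, reported at 1.90, fell as low as 0.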

Other observations

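Cells rich in a gene that few other cells held were more frequent among shallow P24-30 cells. Of kept P24-30 cells under 1000 UMIs, 39 of 205 (19.0%) had 20 or more UMIs of such a gene, against 2.37% of deeper cells and 3.09% of all. Among the members, the cell with Adamtsl1 had 837 UMIs, of which 292 were that gene, and 365 UMIs of it were found in the whole library. The cell with Hoxc5 held 124 of the library's 146 UMIs of that gene, which was found in 7 cells. The cell with Ms4a6b had 726 UMIs in all, and the choroid plexus gene Enpp2 had 77 UMIs in the cell with Ttr. What these cells are was not tested.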
